A study of Mus musculus with 9 samples.

Results

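The set described here holds 33 protein coding genes of the mouse lacrimal gland whose transcripts were higher in every library of 24-month-old females than in every library of 2- or 12-month-old females. The members were chosen from the deposited normalised values on a log2 scale. The lowest 24-month library had to exceed the highest of the 6 younger libraries by at least 0.8, and the mean at 24 months had to be at least 5. Genes of immunoglobulins, T cell receptors and the Scgb, Slc and Col families were left out, as was Dio1. The 33 genes were chosen among 10989 protein coding genes that reached the minimum mean, of 54232 genes measured. The same rule with 2 months on top found 11 genes, and with 12 months on top 7.

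The study compared whole lacrimal glands of female C57BL/6J mice at 3 ages, 2, 12 and 24 months, with 3 libraries at each age, to follow the gland through ageing. All mice were fed without restriction under alternating 12 hours of light and 12 hours of dark, and no other treatment or genetic change is labelled for any group. The titles give the youngest group as 8W. RNA was sequenced in bulk, so more cells of a type and more RNA per cell cannot be told apart, and the labels leave unsaid whether each library of an age is a mouse of its own. P-values therefore measure only the spread between these libraries.

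The lacrimal gland secretes the watery layer of the tear film. Its acini make the tear proteins, its ducts modify the fluid, and the stroma between them holds plasma cells, macrophages, mast cells, fibroblasts and vessels; in ageing mice the gland is known to gather lymphocytes and to secrete less. Several members belong to well described systems. JAK2 is the kinase that carries signals from receptors of growth hormone, prolactin and several cytokines to STAT factors, and SOCS2 and CIS, the product of Cish, are induced by STAT5 and damp the same receptors. Chymases are stored in mast cell granules, scavenger and lectin receptors mark tissue-resident macrophages, and 2'-5' oligoadenylate synthetases are induced by interferons.

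Promoter windows from 250 bases before to 50 bases after the annotated start were taken from RefSeq (GRCm38.p6) and were found for 25 of the 33 members. A stretch of Cish from base -5 to base 25 of such a start (chr9:107296654-107296683, plus strand) is shown for the paired elements that read TTCNNNGAA, the form bound by STAT factors. The stretch of Apol9a from base -66 to base -38 (chr15:77411118-77411146, minus strand) is shown for 2 overlapping matches of GAAANNGAA, the core of an interferon-stimulated element, which lie on the other strand and are printed here as its complement. Capitals mark the matches.
Cish: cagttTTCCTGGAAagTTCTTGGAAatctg
Apol9a: gtgagactTTCAGTTTCCATTTCccagtt

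On either strand TTCNNNGAA was present in 1 of the 25 members with a window, Cish, and in 9.55% of all RefSeq genes with such a window. GAAANNGAA was present in Apol9a and Cma1, 2 of 25 members, against 9.76% of all genes. The letters TATAAA were found in 5 of 25 members, namely A2ml1, Cd209f, Cldn2, Ly6f and Mcpt4, against 15.7% of all genes. Some genes have several windows, and a gene was counted once if any held the letters. Bases -100 to -10 are shown for an epithelial protease inhibitor, a mast cell protease and a claudin, since these members from unlike cell types each carried TATAAA, in capitals, before the start, from base -30 in A2ml1, -32 in Mcpt4 and -35 in Cldn2: A2ml1 (chr6:128581616-128581706, minus strand), Mcpt4 (chr14:56062320-56062410, minus strand) and Cldn2 (chrX:139800708-139800798, plus strand). No motif searched was shared by most members, and a match is only a match of letters.
A2ml1: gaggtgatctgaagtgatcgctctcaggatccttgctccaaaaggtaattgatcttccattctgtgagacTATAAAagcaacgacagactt
Mcpt4: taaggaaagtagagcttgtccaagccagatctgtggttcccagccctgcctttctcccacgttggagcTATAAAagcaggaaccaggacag
Cldn2: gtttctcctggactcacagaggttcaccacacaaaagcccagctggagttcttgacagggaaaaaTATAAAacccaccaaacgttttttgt

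Each library held 40516863 to 42573877 counts. The tissue markers fitted the label in all 9 libraries, with 6328982 to 7823424 counts of the tear protein gene Obp1a and 9560 to 13672 counts of Aqp5, the water channel of acinar cells. Bpifa2, a salivary gland product, was highest in replicate 3 at 2 months, with 26771 normalised counts, and reached 12009 in replicate 2 at 12 months and 8288 in replicate 2 at 24 months. The muscle actin gene Acta1 was at 319.6 and 924 in the 12-month libraries numbered 1 and 3, against at most 14.2 in the other 7. Each of these groups of libraries, of 3 and of 2, was also left out, and a member's fold without it is given where it moved by over 1.5 times. Normalised counts below are counts divided by the size factor of the library, and values of 3 libraries are always given in the order of replicates 1, 2 and 3.

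By construction no 24-month library of a member overlapped a younger one. The lowest 24-month library stood 1.77 to 7.25 times above the highest younger library, with a median of 2.09. Means at 24 months were 2.03 to 47.9 times those at 12 months, with a median of 4.06. These differences chose the genes and are given without a test. Within the 24-month group the highest library was 1.07 to 7.37 times the lowest, and in 21 of the 33 genes less than 2 times. The highest of the 3 was replicate 1 in 9 genes, replicate 2 in 10 and replicate 3 in 14. Together the members took 0.0319% to 0.0629% of the counts of a younger library and 0.195%, 0.214% and 0.62% of those at 24 months. Most of that was A2ml1: without it the share was 0.0096% to 0.0153% in the younger and 0.045% to 0.0601% in the 24-month libraries.

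**Figure D1:**
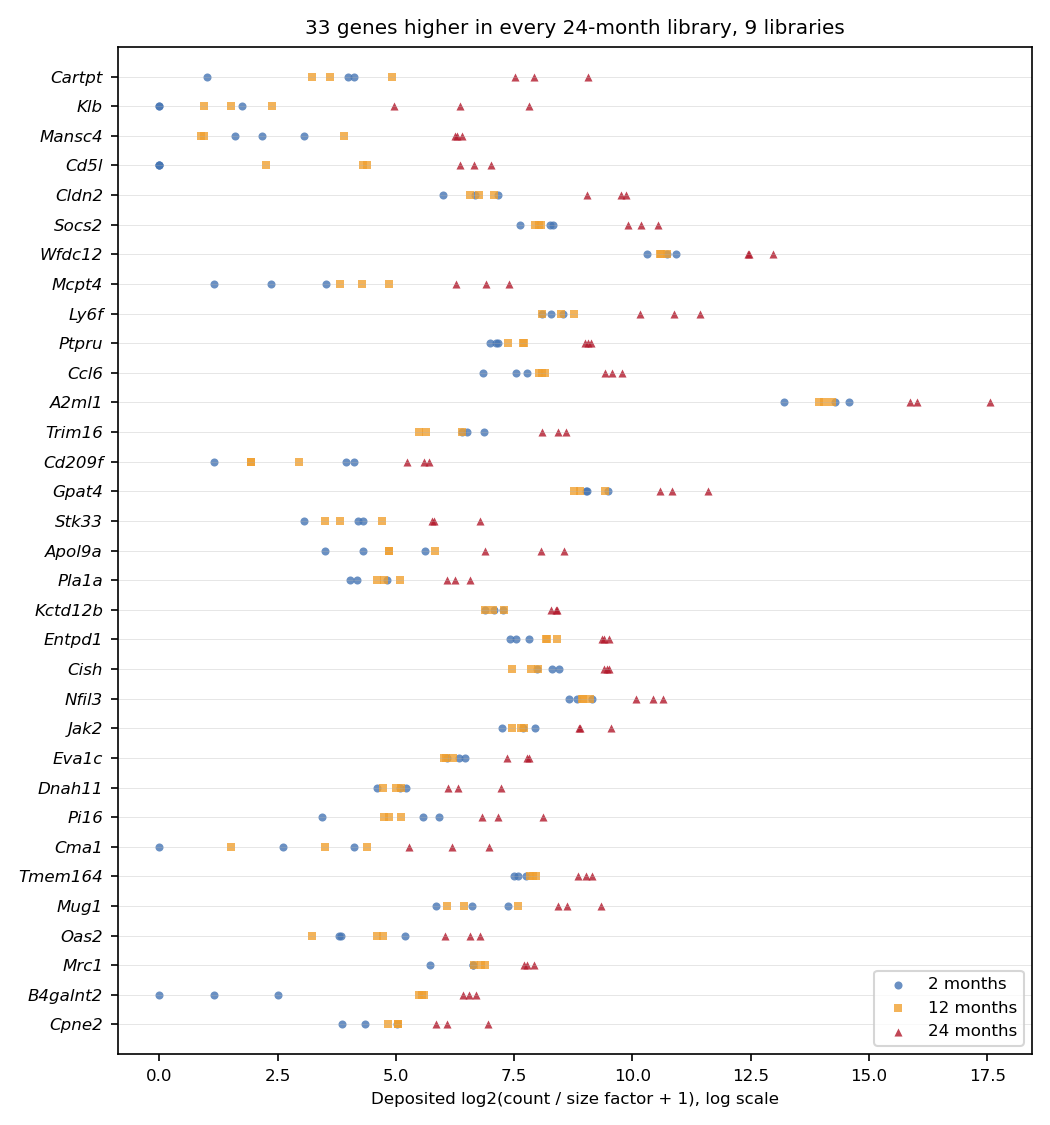
Deposited log2(count / size factor + 1) of the 33 genes (rows, ordered by the gap between the lowest 24-month and the highest younger library) in 9 libraries, 3 at 2 months (circles), 3 at 12 months (squares) and 3 at 24 months (triangles). Triangles lie right of all other points in every row because the rule requires it, and the 2- and 12-month points are mostly mixed.

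Jak2 was a member, and so were Socs2 and Cish of the SOCS family of inhibitors. Jak2 (ENSMUSG00000024789, chr19:29251828-29313080, plus strand), the receptor-bound kinase, stood at 244, 151 and 206 normalised counts in the youngest libraries, 198, 209 and 174 in those of 12 months and 468, 471 and 745 in those of 24 months. The 6 younger libraries were mixed with each other, and 24-month replicate 3 was the highest of all. The mean was 561 ± 159 (SD, n = 3) at 24 months against 194 ± 17.7 at 12 months, 2.9 times as high.

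Socs2 (ENSMUSG00000020027, chr10:95385362-95417180, minus strand), which limits growth hormone receptor signalling, stood at 196, 319 and 306 normalised counts in the youngest libraries, 261, 245 and 266 in those of 12 months and 955, 1483 and 1157 in those of 24 months. Its mean of 1198 ± 266 (SD, n = 3) at 24 months was 4.66 times that of 12 months, and the 2- and 12-month libraries overlapped. Cish (ENSMUSG00000032578, chr9:107296026-107302784, plus strand), whose start holds the paired TTCNNNGAA letters shown above, stood at 250.4, 349.6 and 313 normalised counts in the youngest libraries, 255, 231 and 174 in those of 12 months and 728, 678 and 708 in those of 24 months. Its 24-month libraries were among the closest of the set, with a mean of 705 ± 25.5 (SD, n = 3). Cish was lower at 12 than at 2 months by 0.46 on the log2 scale (SE 0.16), a difference that did not pass the test (edgeR's quasi-likelihood test, adjusted p = 0.103).

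Among 10 other Janus kinases and STAT genes tested, 1 was called higher and 1 lower at 24 than at 12 months, against 2.79% of all 14944 tested genes called higher and 1.60% lower. DESeq2 called 3 of the 10 higher and 1 lower, and limma voom 1 in each direction. At 24 against 2 months edgeR called 2 higher, Jak3 and Stat3, and 1 lower, Jak1. Jak1 lost this call in 6 of 19 alternatives, with an adjusted p of 0.736 with library totals alone, and Stat3 in 4. The median change of the 10 from 12 to 24 months was 0.17 on the log2 scale, and that of all tested genes -0.02. Jak1, the partner kinase of many cytokine receptors, fell by 0.63 from 12 to 24 months (SE 0.09, adjusted p = 0.00196, and 0.0898 or 0.0565 without the libraries with salivary or muscle transcripts), from 3015, 3109 and 3024 to 2138, 1985 and 1848 normalised counts. Jak2 and Jak1 thus stood on opposite sides of their younger levels in all 3 old libraries. Stat5b was higher by 0.53 (SE 0.12, adjusted p = 0.0323), but lost the call in 9 of 19 alternatives. Among them were leaving out 2-month replicate 3 (adjusted p 0.0542), 12-month replicate 1 (0.122), 12-month replicate 3 (0.0608), 24-month replicate 2 (0.0811) or 24-month replicate 3 (0.0967).

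None of 12 other feedback inhibitors, 11 receptors that use JAK2 or 9 further STAT5 target genes was called by edgeR in either direction between 12 and 24 months. At an unadjusted p under 0.05 the inhibitors gave 1 higher and 1 lower, the receptors 1 higher and the targets 1 higher and 2 lower. DESeq2 and limma voom each called 0 inhibitors, 1 receptor and 1 target, the latter both higher. Socs3, counted both among these inhibitors and among the STAT5 targets, stood at 112, 107 and 90.1 normalised counts at 12 and 92.1, 102 and 102 at 24 months. The prolactin receptor Prlr was higher by 0.44 (SE 0.12) and missed the threshold at an adjusted p of 0.051. Its 12-month level had differed from that of 2 months by -0.39 (SE 0.12, adjusted p = 0.0628). Between 24 and 2 months Prlr differed by only 0.06 (SE 0.12, adjusted p = 0.777). The growth hormone receptor Ghr differed by -0.02 between 12 and 24 months (SE 0.11, adjusted p = 0.954). At 24 against 2 months, where 9.82% of all tested genes were called higher and 7.56% lower, 4 of the 11 receptors were called higher, 3 of the 12 inhibitors lower and 2 of the 9 targets higher. The receptors were Csf2rb, Il5ra, Ifngr1 and Il6st, the inhibitors Socs4, Socs7 and Pias4, and Igf1 was among the targets. Csf2rb and Il5ra were already called higher at 12 than at 2 months (adjusted p = 0.00395 and 0.0336). From 12 to 24 months these receptors differed by 0.11 (SE 0.33) and 0.38 (SE 0.73). Socs4 lost its call in 8 and Socs7 in 10 of 19 alternatives, with adjusted p of 0.404 and 0.858 with library totals alone. Igf1, the growth factor that growth hormone induces, stood at 63.6, 54.2 and 86.7 normalised counts in the youngest libraries, 108, 167 and 176 in those of 12 months and 212, 279 and 274 in those of 24 months. It was already higher at 12 than at 2 months, by 1.15 (SE 0.25, adjusted p = 0.0154). Leaving out replicate 2 of either age ended that call (adjusted p = 0.0733 without the 2-month and 0.07 without the 12-month library).

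**Figure D2:**
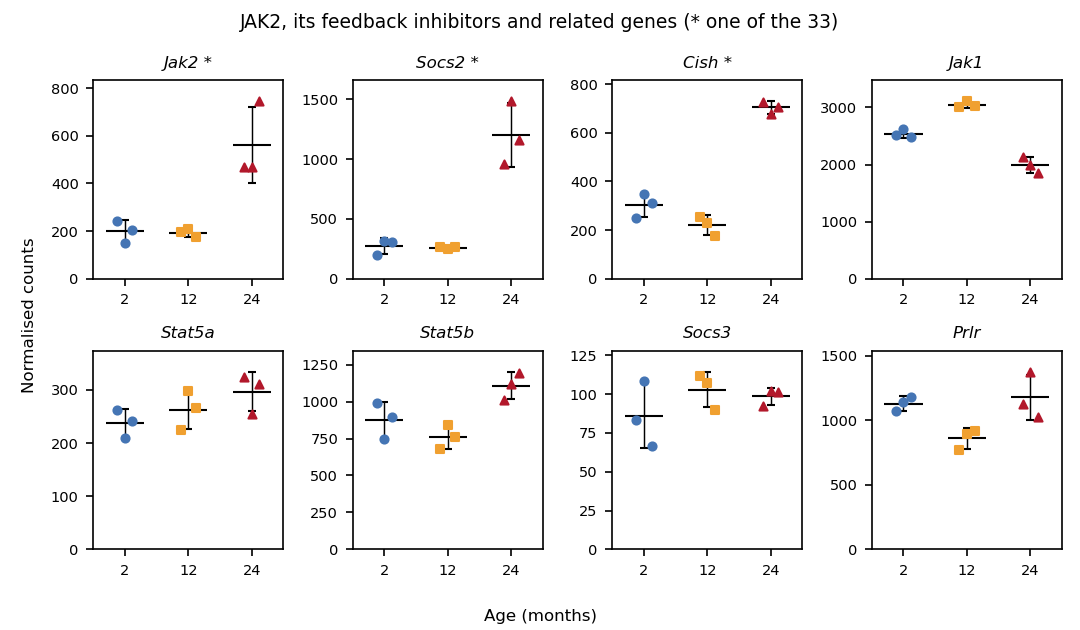
Normalised counts of Jak2, Socs2 and Cish (marked *) and of 5 related genes by age in months; points are libraries in replicate order, horizontal lines means and bars SD (n = 3). The 3 marked genes are separated at 24 months while Socs3 and Stat5a overlap across ages and Jak1 is lowest at 24 months.

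Protease inhibitors secreted by epithelia held the most abundant members per length of transcript. A2ml1 (ENSMUSG00000047228, chr6:128539821-128581608, minus strand), an inhibitor of the alpha-2-macroglobulin family that traps proteases, stood at 19831, 24539.5 and 9438 normalised counts in the youngest libraries, 19112, 16877 and 15779 in those of 12 months and 66153, 59376 and 194187 in those of 24 months. Replicate 3 at 24 months was 3.27 times the lowest old library, which still lay above every younger library. Per kilobase of exon the mean was 13746 normalised counts at 24 months, the highest of the 33. Wfdc12 (ENSMUSG00000042845, chr2:164189231-164190608, minus strand), a small whey acidic protein inhibitor of serine proteases, stood at 1268, 1705 and 1929 normalised counts in the youngest libraries, 1553, 1542 and 1698 in those of 12 months and 5579, 8074 and 5679 in those of 24 months. With a mean of 6444 ± 1412 (SD, n = 3) at 24 months, and 8315 per kilobase, its mean came after that of A2ml1. That order rests on replicate 3, with 25047 per kilobase for A2ml1 and 7328 for Wfdc12, since in replicate 2 A2ml1 had 7658 and Wfdc12 10418.

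Mug1 (ENSMUSG00000059908, chr6:121838541-121889057, plus strand), a murinoglobulin of the same family as A2ml1, stood at 56.4, 97.3 and 164 normalised counts in the youngest libraries, 189, 66.9 and 86.3 in those of 12 months and 344, 647 and 392 in those of 24 months. The highest old library was replicate 2, which also held salivary transcripts, and without such libraries the 24-month mean was 2.67 times the higher of the younger means in place of 4.04. Its near-identical relative Mug2 had at most 1 count in any library, and A2m and Pzp of the family at most 5, so few reads were assigned to these copies. Among the 4 other Wfdc genes tested, none was called by edgeR between 12 and 24 months, 2 were higher at an unadjusted p under 0.05, and DESeq2 and limma voom each called 1 higher. Wfdc17 lay just outside the rule, at 24.6, 14.8 and 44.5 normalised counts in the youngest libraries, 75, 84.5 and 67.6 in those of 12 months and 176, 148 and 182 in those of 24 months.

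Cldn2 (ENSMUSG00000047230, chrX:139800828-139811386, plus strand), a claudin that forms pores for cations and water in tight junctions, stood at 143, 62.8 and 101 normalised counts in the youngest libraries, 133, 93.7 and 107 in those of 12 months and 527, 868 and 928 in those of 24 months. The mean of 774 ± 216 (SD, n = 3) at 24 months was 6.96 times that of 12 months, and the 6 younger libraries overlapped. Of 10 other claudin genes tested none was called higher at 24 than at 12 months by edgeR, DESeq2 or limma voom, or at an unadjusted p under 0.05, and 1, Cldn8, was called lower. Cldn8 fell by 0.54 (SE 0.12, adjusted p = 0.0254), a call lost without any of 12-month replicates 1 (adjusted p = 0.089), 2 (0.0623) and 3 (0.0641) or 24-month replicates 2 (0.0769) and 3 (0.0898).

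Both mast cell chymases of connective tissue were members, and they lie 115 kb apart on chromosome 14. Mcpt4 (ENSMUSG00000061068, chr14:56059629-56062313, minus strand) stood at 4.1, 1.2 and 10.5 normalised counts in the youngest libraries, 13.1, 18.4 and 28.2 in those of 12 months and 168, 76.1 and 119 in those of 24 months. Cma1 (ENSMUSG00000022225, chr14:55941451-55944675, minus strand) stood at 5.1, 0 and 16.4 normalised counts in the youngest libraries, 1.9, 20.1 and 10.3 in those of 12 months and 124, 38.1 and 72.2 in those of 24 months. In each gene 24-month replicate 1 was the highest and replicate 2 the lowest of the old libraries. Without the libraries that held salivary transcripts, among them the lowest old one, the 24-month mean of Cma1 was 16.0 times the higher younger mean in place of 7.24, and without the 12-month libraries with muscle transcripts 3.88 times.

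Other mast cell genes were measured beside them. Of 4 tested genes of the list that are no members, 1 was called higher at 24 than at 12 months and 3 at 24 than at 2 months, and none lower. DESeq2 called 3 higher in each of these comparisons and limma voom 1. The gene called between 12 and 24 months was Kit, the stem cell factor receptor, higher by 0.74 (SE 0.13, adjusted p = 0.00773). It stood at 872, 809 and 693 normalised counts in the youngest libraries, 721, 805 and 635 in those of 12 months and 1024, 1263 and 1352 in those of 24 months, and lost this call with library totals alone (0.0775) and without the libraries with salivary (0.0589) or muscle transcripts (0.261). Cpa3, the granule carboxypeptidase, stood at 1, 1.2 and 1.2 normalised counts in the youngest libraries, 0, 14.2 and 11.3 in those of 12 months and 70.4, 19 and 52.9 in those of 24 months. Tpsb2, a tryptase, stood at 10.3, 4.9 and 18.7 normalised counts in the youngest libraries, 5.6, 24.3 and 7.5 in those of 12 months and 67.2, 24.7 and 69.6 in those of 24 months. Tpsb2 was called higher at 24 than at 2 months (difference 2.23, SE 0.65, adjusted p = 0.0352), and lost this call when replicate 1 (0.0885) or 2 (0.128) of 2 months or replicate 1 (0.0852) or 3 (0.112) of 24 months was left out. Cpa3 and Tpsb2 were lowest in 24-month replicate 2 of the old libraries, as the chymases were, while Kit was lowest in replicate 1. Gata2, the remaining tested gene of the list, went the other way and was not called by edgeR. It stood at 16.4, 23.4 and 12.9 normalised counts at 2 months, 6.6, 37.7 and 16 at 12 and 7.6, 13.3 and 13.4 at 24 months. At 24 months Gata2 differed by -0.82 from 12 months (SE 0.61, adjusted p = 0.523). Against 2 months the difference was -0.60 (SE 0.62, adjusted p = 0.556). Tpsab1, a further tryptase, had 0 counts in all 9 libraries. Kit is also on the list of ductal and luminal epithelial genes, and which cells gave its level was not tested. At 2 months Kit stood at 693 to 872 normalised counts where Cpa3 stood at 1 to 1.2. The summed level of the 8 other genes on the mast cell list was mostly Kit. It was 726 to 902 normalised counts at 2 months, 671 to 887 at 12 months and 1181 to 1503 at 24 months. Its part in the higher chymase levels was not tested.

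Macrophage genes were represented by a scavenger protein, a mannose receptor, a lectin and a chemokine. Cd5l (ENSMUSG00000015854, chr3:87357881-87371073, plus strand), a secreted scavenger protein of tissue macrophages, had no counts in the 3 libraries at 2 months. It stood at 3.7, 20.1 and 18.8 normalised counts at 12 months and 99.7, 128 and 81.4 at 24 months. Against a floor of 3 counts over the 2-month group it was at least 12.5-fold higher at 12 months and at least 90.5-fold higher at 24 months. Cd5l therefore did not first appear at 24 months, and its 24-month mean was 7.24 times the 12-month mean.

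Mrc1 (ENSMUSG00000026712, chr2:14229392-14332057, plus strand), the macrophage mannose receptor, stood at 97.5, 51.7 and 98.4 normalised counts in the youngest libraries, 111, 116 and 99.5 in those of 12 months and 207, 219 and 242 in those of 24 months. Its 24-month libraries agreed closely, at 223 ± 18.1 (SD, n = 3). Cd209f (ENSMUSG00000051906, chr8:4102787-4105835, minus strand), a C-type lectin of the DC-SIGN family, stood at 14.4, 1.2 and 16.4 normalised counts in the youngest libraries, 2.8, 6.7 and 2.8 in those of 12 months and 50.9, 47.6 and 36.9 in those of 24 months. It was the lowest member at 24 months on the scale of the rule, and all 12-month libraries were below replicates 1 and 3 of 2 months. Ccl6 (ENSMUSG00000018927, chr11:83587882-83593087, minus strand), a chemokine for macrophages and other myeloid cells, stood at 218, 113 and 184 normalised counts in the youngest libraries, 261, 282 and 270.3 in those of 12 months and 684, 755 and 880.1 in those of 24 months. All 12-month libraries of Mrc1 and Ccl6 lay above all 2-month libraries, though neither gene passed the test of that difference (adjusted p = 0.356 and 0.0622).

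Of 22 tested macrophage and monocyte genes other than Mrc1, 12 were called higher and 1 lower at 12 than at 2 months, against 5.41% and 2.52% of all tested genes. Between 12 and 24 months edgeR called 2 higher, Cd163 and Mertk, and none lower, while DESeq2 called 7 higher, limma voom 3, and 10 were higher at an unadjusted p under 0.05. At 24 against 2 months 16 were called higher. Cd163 (difference 0.73, SE 0.43, adjusted p = 0.273) and Mertk (0.68, SE 0.24, adjusted p = 0.0705) were not among them. The summed level of the 23 other list genes was 7427 to 8699 normalised counts at 2 months, 13948 to 17737 at 12 months and 17067 to 24253 at 24 months, and its part in the members' levels was not tested. Cd163, the haemoglobin scavenger receptor, stood at 24.6, 12.3 and 30.5 normalised counts in the youngest libraries, 3.7, 3.3 and 3.8 in those of 12 months and 44.4, 32.4 and 36.1 in those of 24 months. It was the gene called lower at 12 months, an age at which Cd209f differed from 2 months by -1.34 (SE 0.73, adjusted p = 0.300). Cd163 fell by 2.59 from 2 to 12 months (SE 0.51, adjusted p = 0.0103, but 0.0523 without 12-month replicate 2, 0.22 without the libraries with salivary transcripts and 0.117 without those with muscle transcripts) and was higher by 3.33 at 24 than at 12 months (SE 0.51, adjusted p = 0.00353). Without the libraries with salivary transcripts the later difference had an adjusted p of 0.065 in Cd163 and 0.143 in Mertk, and without those with muscle transcripts 0.127 and 0.1.

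Interferon-induced members were lowest in the same old library. Oas2 (ENSMUSG00000032690, chr5:120730333-120749853, minus strand), which makes the 2'-5' oligoadenylates that activate RNase L, stood at 13.3, 35.7 and 12.9 normalised counts in the youngest libraries, 8.4, 23.4 and 25.3 in those of 12 months and 93.2, 64.7 and 109 in those of 24 months. Apol9a (ENSMUSG00000057346, chr15:77403789-77411135, minus strand), an apolipoprotein L gene induced by interferon, stood at 10.3, 48 and 18.7 normalised counts in the youngest libraries, 28.1, 56.1 and 28.2 in those of 12 months and 267, 117 and 372 in those of 24 months. Both were highest in 24-month replicate 3 and lowest in replicate 2. Without the libraries with salivary transcripts the 24-month mean of Apol9a was 11.0 times the higher younger mean in place of 6.73. Reads of Apol9a and its close copy Apol9b may be divided between them in counting, so the values of each are uncertain, but Apol9b showed the same order of libraries at 24 months, at 327, 143 and 481.

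Of 29 other interferon-response genes tested, 4 were called higher and none lower at 24 than at 12 months, and 10 were called higher at 24 than at 2 months. DESeq2 called 11 and 15 higher, and limma voom 1 and 5. The 4 were Oas1a, Ifit3, Oasl2 and Usp18. The list's summed level was 3560 to 5952 normalised counts at 2 months, 3755 to 5689 at 12 months and 8619, 5143 and 11320.1 at 24 months, so that replicate 2 of the old group lay within the younger range. The part of the list in the members' levels was not tested. Oas1a stood at 23.6, 54.2 and 38.7 normalised counts in the youngest libraries, 44.1, 73.6 and 47.9 in those of 12 months and 171, 112 and 206 in those of 24 months, a difference of 1.55 between 24 and 12 months (SE 0.34, adjusted p = 0.0236). Without 12-month replicate 1 the adjusted p was 0.0941 for Oas1a, 0.15 for Ifit3, 0.135 for Oasl2 and 0.166 for Usp18, and without 24-month replicate 3 it was 0.0927, 0.154, 0.128 and 0.156. All 4 also lost the call without 12-month replicate 3 (0.0644, 0.119, 0.0932 and 0.086) or 24-month replicate 1 (0.0557, 0.0994, 0.0737 and 0.112). Ifit3, Oasl2 and Usp18 lost it without 2-month replicate 3 (0.0667, 0.0579 and 0.0728), and Ifit3 and Usp18 without 2-month replicate 2 (0.0571 and 0.053) or 12-month replicate 2 (0.0573 and 0.0983). Against 2 months Oas1a was higher by 2.08 (SE 0.35, adjusted p = 0.00305) and Apol9b by 3.36 (SE 0.59, adjusted p = 0.00364), and these calls held in all 19 alternatives.

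**Figure D3:**
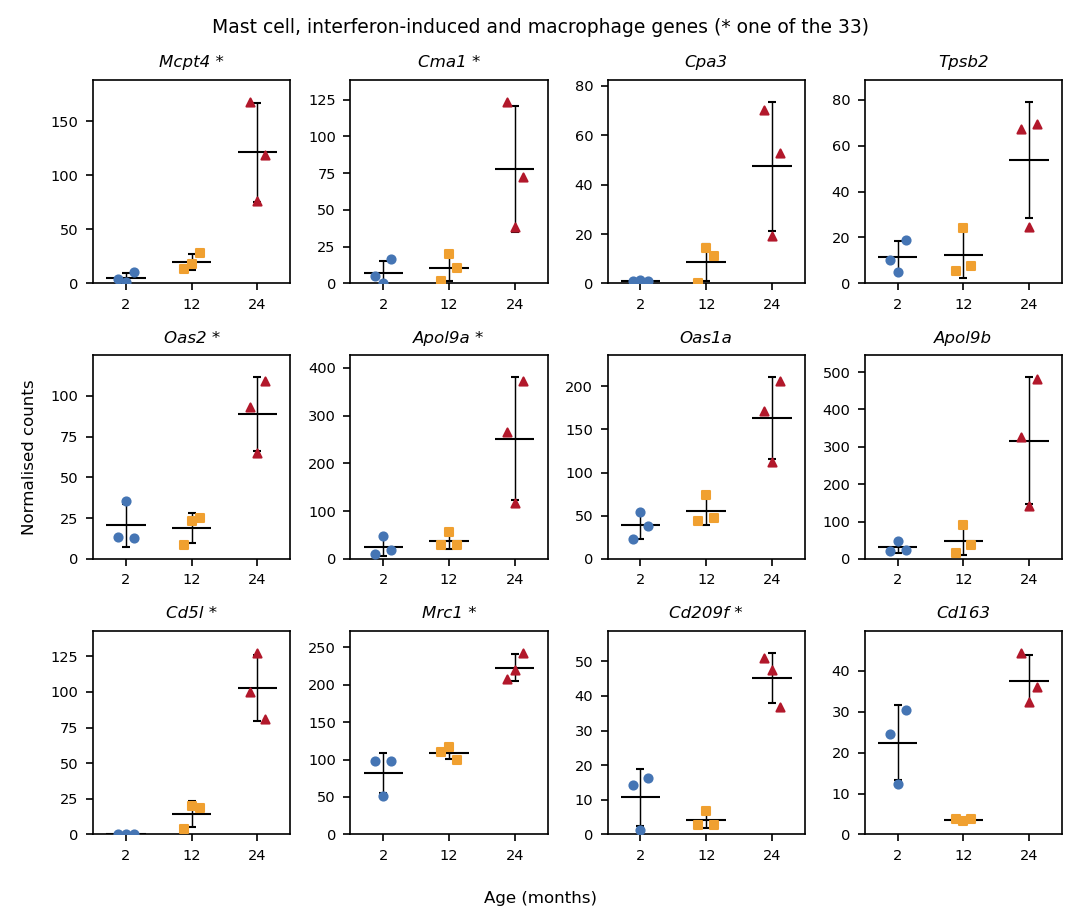
Normalised counts of 7 members linked to mast cells, interferon and macrophages (marked *) and of 5 genes of the same lists, by age in months; points are libraries in replicate order, horizontal lines means and bars SD (n = 3). Among the 24-month libraries the mast cell genes, the interferon-induced genes and Cd163 are lowest in replicate 2 (the middle triangle), while Mrc1, Cd5l and Cd209f are not.

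Receptors and other membrane proteins made up much of the remainder. Klb (ENSMUSG00000029195, chr5:65348314-65384007, plus strand), the co-receptor that lets endocrine fibroblast growth factors signal, stood at 0, 0 and 2.3 normalised counts in the youngest libraries, 1.9, 4.2 and 0.9 in those of 12 months and 30.3, 224 and 81.4 in those of 24 months. Only 2 counts were seen over the 3 libraries at 2 months against 360 at 24 months. After scaling by the size factors the ratio was 150 (41.3 to 1245, the 95% interval from counting error alone). The rule chose the gene by such a difference, so the interval is no test of it. Of the 360, 235 came from replicate 2, which held salivary transcripts, and at each age Klb was highest in the library with most of these. Without those 3 libraries the 24-month mean was 55.9 normalised counts in place of 112. Without the 12-month libraries with muscle transcripts the 24-month mean was 26.6 times the higher younger mean in place of 47.9. The old libraries differed 7.37-fold, the widest spread of the set, and replicate 2 was the highest. Summed levels of 13 adipocyte genes were also highest there, at 8484, 11754 and 8041 at 24 months. They were 3412 to 4134 at 2 months and 5136 to 6924 at 12 months. Of the 13, 10 were called higher at 12 than at 2 months, against 5.41% of all tested genes. Between 12 and 24 months 1 was called higher, against 2.79%, and none lower. Adipoq, of this list, stood at 3.7, 81.2 and 84.5 normalised counts at 12 months and 54.2, 124 and 12.6 at 24 months. The part of adipocyte transcripts in the level of Klb was not tested. Of 3 fibroblast growth factor receptors tested, none was called between 12 and 24 months by edgeR, DESeq2 or limma voom, and 1 was higher at an unadjusted p under 0.05.

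Cartpt (ENSMUSG00000021647, chr13:99898489-99901091, minus strand), which encodes the CART neuropeptide of the nervous system and gut, had the widest gap of the set. It stood at 1, 14.8 and 16.4 normalised counts in the youngest libraries, 29.1, 8.4 and 11.3 in those of 12 months and 183, 239.8 and 532 in those of 24 months, a mean of 318 ± 187 (SD, n = 3) in the old group. The 12-month mean was 16.2 ± 11.2, and the lowest old library was 6.3 times the highest younger one. Without the 12-month libraries with muscle transcripts the old mean was 29.7 times the higher younger mean in place of 19.6. Mansc4 (ENSMUSG00000072662, chr6:147075060-147087032, minus strand), a membrane protein with a MANSC domain, stood at 2.1, 7.4 and 3.5 normalised counts in the youngest libraries, 14.1, 0.8 and 0.9 in those of 12 months and 76.9, 75.2 and 83.1 in those of 24 months. Its old libraries were nearly level, and 12-month replicate 1 was the only younger library above 7.4.

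Ly6f (ENSMUSG00000022583, chr15:75268421-75272235, plus strand), a lipid-anchored protein of the Ly6 family, stood at 309, 273 and 370.1 normalised counts in the youngest libraries, 437, 272 and 360.3 in those of 12 months and 2751, 1137 and 1871 in those of 24 months. Replicate 1 was the highest and replicate 2 the lowest in the old group, as with the chymases. Ptpru (ENSMUSG00000028909, chr4:131768457-131838288, minus strand), a receptor-type tyrosine phosphatase of cell contacts, stood at 126, 142 and 137 normalised counts in the youngest libraries, 207, 166 and 205 in those of 12 months and 536, 559 and 513 in those of 24 months. Entpd1 (ENSMUSG00000048120, chr19:40612366-40741602, plus strand), the ectoenzyme CD39 that degrades extracellular ATP, stood at 224, 185 and 169 normalised counts in the youngest libraries, 293, 339.7 and 287 in those of 12 months and 726, 659.5 and 669.5 in those of 24 months. In both the 12-month libraries lay between those of 2 and 24 months without overlap. Of 9 other purine ectoenzymes and receptors none was called between 12 and 24 months by edgeR, DESeq2 or limma voom, and 1 was higher at an unadjusted p under 0.05.

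Tmem164 (ENSMUSG00000047045, chrX:142681406-142843494, plus strand), a membrane acyltransferase of ether phospholipids, stood at 214, 179.7 and 189.7 normalised counts in the youngest libraries, 238, 248 and 227 in those of 12 months and 518, 566 and 459.8 in those of 24 months. Kctd12b (ENSMUSG00000041633, chrX:153685154-153696391, minus strand), of the potassium channel tetramerisation domain family, had 135 ± 17.5, 134 ± 19 and 328 ± 17 normalised counts (mean ± SD, n = 3) at 2, 12 and 24 months. Eva1c (ENSMUSG00000039903, chr16:90826719-90905109, plus strand), a heparin-binding transmembrane protein, had 77.8 ± 10.2, 67.4 ± 5 and 202 ± 34.4. The younger means of Kctd12b differed by less than their spread, and Eva1c differed between 12 and 2 months by -0.20 (SE 0.21, adjusted p = 0.647).

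Beside Tmem164, lipid and glycan enzymes were represented by 3 members. Gpat4 (ENSMUSG00000031545, chr8:23171265-23208346, minus strand), an acyltransferase of the endoplasmic reticulum that starts glycerolipid synthesis, stood at 515, 526 and 711 normalised counts in the youngest libraries, 682, 474 and 437 in those of 12 months and 1828, 3110 and 1532 in those of 24 months. Replicate 2 was the highest old library. Of 12 other glycerolipid synthesis genes tested, 1 was called higher and none lower at 24 than at 12 months. It was Agpat3, which acts in the step after Gpat4. Agpat3 was higher by 1.05 (SE 0.09, adjusted p = 8.52e-05), and by 0.80 against 2 months (SE 0.09, adjusted p = 0.000287), and kept both calls in all 19 alternatives. Pla1a (ENSMUSG00000002847, chr16:38396117-38433145, minus strand), a phospholipase that acts on phosphatidylserine, had 19.9 ± 6.2, 27.4 ± 4.84 and 78.5 ± 13.3 normalised counts (mean ± SD, n = 3) at the 3 ages.

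B4galnt2 (ENSMUSG00000013418, chr11:95865943-95914891, minus strand), which adds the terminal sugar of the Sda blood group antigen, stood at 0, 1.2 and 4.7 normalised counts in the youngest libraries, 45.9, 47.7 and 44.1 in those of 12 months and 84.5, 92.3 and 103 in those of 24 months. It had 5 counts in all at 2 months. Its 12-month libraries were close to each other and far above those of 2 months, and on the log2 scale 4.51 of its fitted difference of 5.52 between 2 and 24 months was present at 12 months.

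Nfil3 (ENSMUSG00000056749, chr13:52967209-52981073, minus strand), a transcriptional repressor of the circadian clock and of lymphoid development, stood at 457, 403 and 562 normalised counts in the youngest libraries, 493, 546 and 492 in those of 12 months and 1375, 1597 and 1083 in those of 24 months. Of 17 other clock genes tested, 1 was called higher and 3 lower at 24 than at 12 months. Arntl was higher by 0.88 (SE 0.20, adjusted p = 0.0256), a call lost in 7 of 19 alternatives. The 3 lower were Bhlhe41, Cry2 and Tef, of which Cry2 lost the call in 2 and Tef in 7 of 19 alternatives. At 24 against 2 months 4 were called higher, Arntl among them, and 3 lower, against 9.82% and 7.56% of all tested genes. Bhlhe41, a clock repressor, fell by 0.94 (SE 0.15, adjusted p = 0.00513, and 0.196 without the 12-month libraries with muscle transcripts) after it had been higher at 12 than at 2 months by 1.03 (SE 0.15, adjusted p = 0.00265, and 0.0553 or 0.0548 without the libraries with salivary or muscle transcripts). Between 24 and 2 months Bhlhe41 differed by 0.09 (SE 0.16, adjusted p = 0.742). No time of day of collection is labelled.

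Pi16 (ENSMUSG00000024011, chr17:29317680-29330593, plus strand), a marker of fibroblasts around vessels, stood at 59.5, 9.8 and 46.8 normalised counts in the youngest libraries, 33.7, 25.9 and 28.2 in those of 12 months and 276, 111 and 142 in those of 24 months. Of 26 other fibroblast and matrix genes tested, 11 were called higher and none lower at 24 than at 12 months, against 2.79% and 1.60% of all tested genes. At 24 than at 2 months 16 were called higher, against 9.82%. DESeq2 called 13 and 17 higher in these comparisons and limma voom 8 and 10. At 24 against 12 months Loxl1, which crosslinks elastin, was higher by 1.62 (SE 0.27, adjusted p = 0.00571), and Gsn, encoding gelsolin, by 0.93 (SE 0.16, adjusted p = 0.0076). Without the 12-month libraries with muscle transcripts the adjusted p was 0.158 and 0.152. Mmp3 and Timp2, also called higher, lost the call in 4 and 5 of 19 alternatives. Summed levels of the 27 other list genes were 11576 to 14436 normalised counts at 2 months, 11604 to 13622 at 12 months and 18474 to 27247 at 24 months. Their part in the level of Pi16 was not tested.

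The remaining members are named with their means at 2, 12 and 24 months (± SD, n = 3). Trim16 (ENSMUSG00000047821, chr11:62820231-62850808, plus strand), a ubiquitin ligase, had 96.3 ± 17.3, 58.7 ± 21.5 and 335 ± 58 normalised counts. Stk33 (ENSMUSG00000031027, chr7:109279223-109439081, minus strand), a serine/threonine kinase, had 14.5 ± 6.22, 16.2 ± 7.85 and 72.8 ± 31.7, and its old mean was 2.9 times the higher younger mean without the 12-month libraries with muscle transcripts in place of 4.5. Cpne2 (ENSMUSG00000034361, chr8:94532990-94570531, plus strand), a calcium-dependent membrane-binding copine, had 21.6 ± 9.21, 30.5 ± 2.47 and 81.8 ± 35.6. Trim16 was lower at 12 than at 2 months by 0.71 on the log2 scale (SE 0.26) without passing the test (adjusted p = 0.121), and Cpne2 was the member nearest the threshold.

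Dnah11 (ENSMUSG00000018581, chr12:117877982-118199043, minus strand), a dynein heavy chain of motile cilia, had 30.7 ± 6.52, 30.01 ± 4.28 and 98 ± 44. Its locus overlaps Cdca7l on the other strand, with 402 counts at 24 months against 301 of Dnah11. Whether the counting used strand is not given in the sources used here, so the reads of the overlap may be shared. Cdca7l itself stood at 90.0, 121 and 95.7 at 12 and 141, 89.5 and 149 at 24 months, with no such difference.

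The rule bounds the 2- and 12-month libraries from above and uses no difference between them, so this difference could be tested for each member. All 33 were tested with edgeR's quasi-likelihood test over 14944 genes. At 12 months 4 members were called higher than at 2 months and none lower, against 5.41% and 2.52% of all tested genes. DESeq2 and limma voom also called none lower, 2 were lower at an unadjusted p under 0.05, and with no filter on low counts Trim16 (adjusted p = 0.0448) and Cish (0.0485) were called lower. Trim16 was also called lower without 12-month replicate 1 (0.0372). The 4 make up 12.1% of the set, and no test was made of that share against the background. B4galnt2 was higher by 4.51 on the log2 scale (SE 0.58, adjusted p = 0.00106) and Cd5l by 6.88 (SE 1.24, adjusted p = 0.00902), a fitted value that depends on the prior count since Cd5l had no count at 2 months. Entpd1 was higher by 0.68 (SE 0.14, adjusted p = 0.0111) and Ptpru by 0.52 (SE 0.14, adjusted p = 0.0369). In all 4 every 12-month library lay above every 2-month library, so the wording of a rise at 24 months alone did not hold for them.

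B4galnt2 kept its call in all 19 alternatives. Ptpru lost it in 13 of 19, with adjusted p up to 0.443. Among these were leaving out 2-month replicate 1 (0.0828), 2 (0.0875) or 3 (0.0886), 12-month replicate 1 (0.109) or 3 (0.0948), and 24-month replicate 1 (0.0508) or 2 (0.061). Entpd1 lost it when replicate 2 (adjusted p = 0.0551) or 3 (0.0515) of 2 months or replicate 2 of 12 months (0.0584) was left out, and without the 3 libraries with salivary transcripts (0.28). Cd5l lost it only without those 3 libraries (adjusted p = 0.127), among 18 alternatives in which it could be tested.

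The other 29 members were not called between 2 and 12 months. Their log2 differences ran from -1.34 for Cd209f to 1.89 for Mcpt4, and 20 of the 29 were under 0.5 in size. Of them 5 had an unadjusted p under 0.05, with Mcpt4, Ccl6 and Tmem164 higher and Trim16 and Cish lower at 12 months. Over the 33 the median difference was 0.16, and over all tested genes 0.01. In 8 members every 12-month library lay above every 2-month library, against 14.8% of all tested genes, and in none below, against 12.6%. The 8 were the 4 called genes with Mcpt4, Ccl6, Mrc1 and Tmem164. A missed threshold does not show that the ages were alike, and for low members such as Klb the SE of 1.44 left a wide range.

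**Figure D4:**
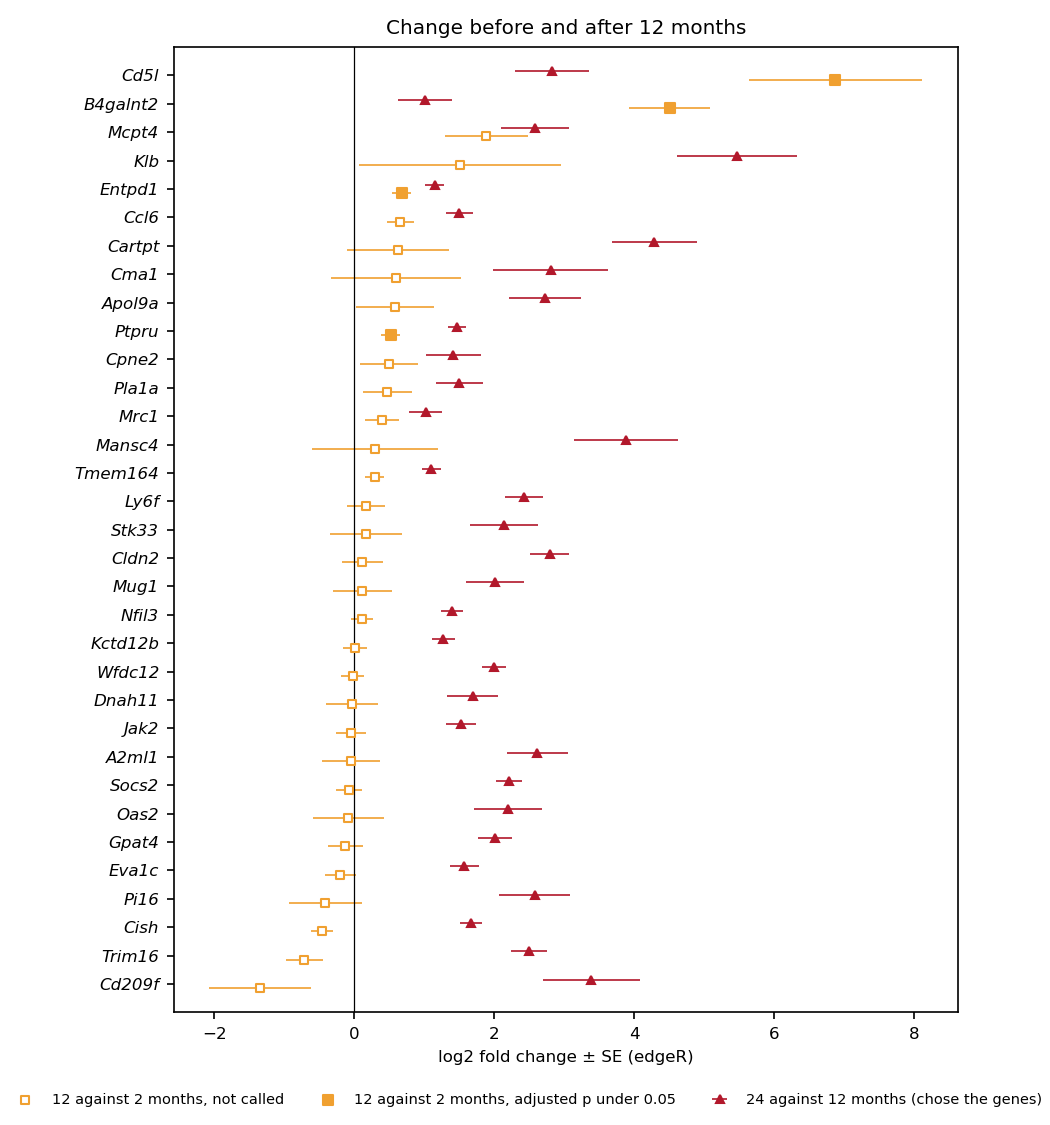
Log2 fold change with its SE from edgeR for the 33 genes, ordered by the 12 against 2 month change (squares, filled where the adjusted p is under 0.05) and with the fitted 24 against 12 month change (triangles), which chose the genes and carries no test. B4galnt2 and Cd5l have larger fitted changes before 12 months than after it, and most other squares lie near 0.

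The members were spread over 18 chromosomes, and Mcpt4 and Cma1 were the closest pair. To see whether nearby genes shared the pattern, the nearest tested protein coding gene on each side within 100 kb was examined. This gave 45 genes beside 30 members. At 24 against 12 months 5 were called higher and 1 lower, against 2.79% and 1.60% of all tested genes. The median difference of the 45 was 0.04 on the log2 scale, against -0.02 over all tested genes. Of these 5, Ccl9, Cd209g and BC025446 had differences above 2, and each belongs to the gene family or cluster of the member beside it. Ccl9, 9246 bp from Ccl6, stood at 3407, 3028 and 2467 normalised counts in the youngest libraries, 2982, 3388 and 2645 in those of 12 months and 5506, 12485 and 19606 in those of 24 months. It was higher by 2.05 (SE 0.33, adjusted p = 0.00513, and 0.0714 or 0.201 without the libraries with salivary or muscle transcripts). Cd209g, 28263 bp from Cd209f, stood at 13.3, 14.8 and 23.4 normalised counts in the youngest libraries, 1.9, 5.9 and 0.9 in those of 12 months and 26, 13.3 and 25.2 in those of 24 months. It was higher by 2.80 (SE 0.66, adjusted p = 0.0328), a call lost without 2-month replicate 3 (0.0506), 12-month replicate 1 (0.125) or 3 (0.0941), or 24-month replicate 1 (0.0787) or 3 (0.101). BC025446, a gene of the Ly6 cluster 45760 bp from Ly6f, stood at 238, 174 and 359.6 normalised counts in the youngest libraries, 261, 171 and 159.5 in those of 12 months and 1403, 492 and 538 in those of 24 months. It was higher by 2.03 (SE 0.39, adjusted p = 0.0123, but 0.0517 without 12-month replicate 2 and 0.173 without the libraries with muscle transcripts) and was highest in 24-month replicate 1, as Ly6f was. The others called higher were Cradd and Mapkapk3. Cradd, 61229 bp from Socs2, was higher by 0.97 (SE 0.23, adjusted p = 0.0323), and lost the call in 10 of 19 alternatives. Mapkapk3, 6149 bp from Cish, was higher by 0.49 (SE 0.12, adjusted p = 0.0442), and lost the call in 13 of 19. Insl6, the neighbour of Jak2 within that distance, was not called in this comparison (difference -0.13, SE 0.68, adjusted p = 0.944).

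Of 20 chemokine genes other than Ccl6, 3 were called higher and 1 lower at 24 than at 12 months. The 3 were Ccl9, Ccl11 and Ccl8, a monocyte chemokine. Ccl8 was higher by 2.01 (SE 0.48, adjusted p = 0.0367), and lost the call in 10 of 19 alternatives. Among them were DESeq2 (0.0782), the replicate block (0.0793) and leaving out replicate 1 (0.127), 2 (0.074) or 3 (0.082) of 12 months or replicate 1 (0.0833) or 3 (0.13) of 24 months. Ccl28, an epithelial chemokine that attracts plasma cells, was the gene called lower, by -0.89 (SE 0.09, adjusted p = 0.000241), and it kept this call in all 19 alternatives. Ccl11, the eosinophil chemokine eotaxin, was higher by 1.19 (SE 0.19, adjusted p = 0.00513). Without the 12-month libraries with muscle transcripts the adjusted p of Ccl11 was 0.171.

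**Figure D5:**
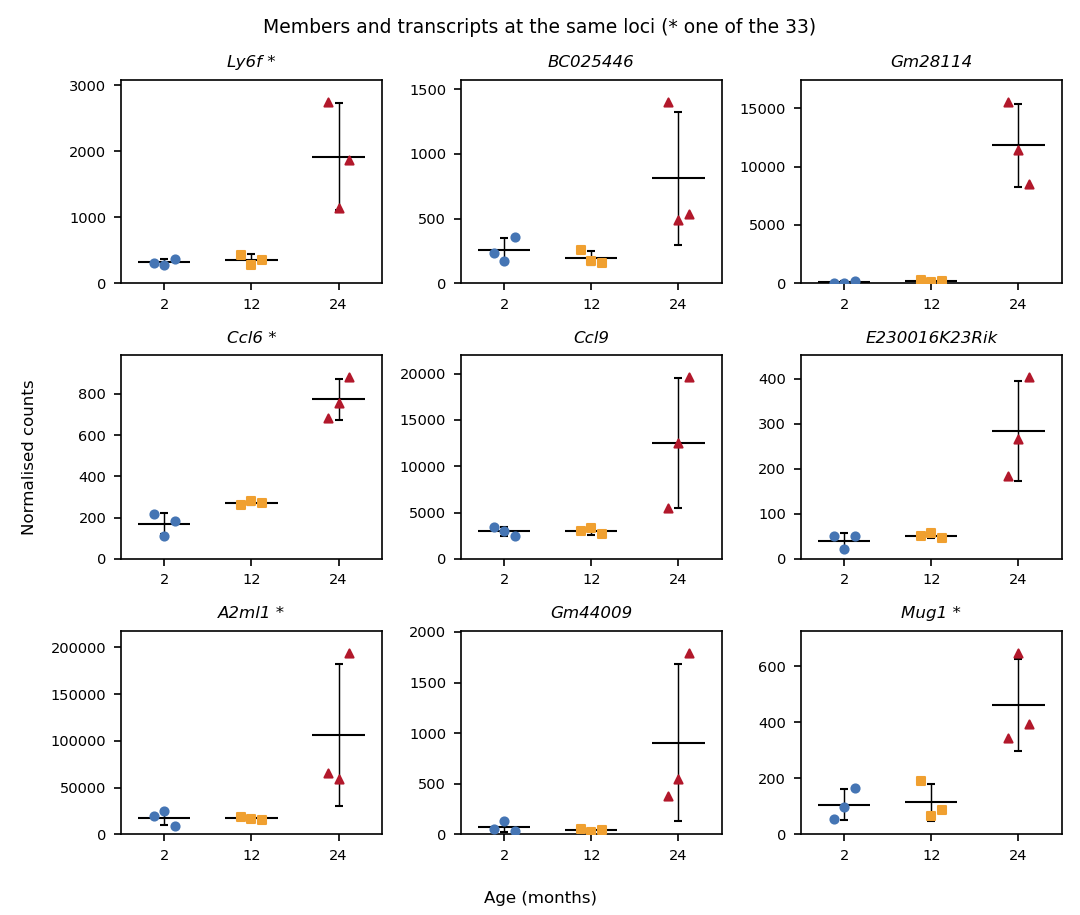
Normalised counts by age in months of 4 members (marked *) and of transcripts at or near their loci; points are libraries in replicate order, horizontal lines means and bars SD (n = 3). Neighbours in the Ly6f, Ccl6 and A2ml1 rows follow the member beside them in which old library is highest, while Mug1, on the same chromosome as A2ml1 but far from it, is highest in another library.

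Values at the threshold describe how sharply the set is bounded. Just inside the gap of 0.8 were Cpne2 at 0.80, B4galnt2 at 0.81 and Mrc1 at 0.83. Just outside were Wfdc17 at 0.796, Gpr162 at 0.777 and Ppard, a lipid-sensing nuclear receptor, at 0.776. Ppard stood at 72.9, 96 and 130 normalised counts in the youngest libraries, 111, 172 and 80.7 in those of 12 months and 296, 326 and 499 in those of 24 months.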

How the data were processed

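Total RNA of 9 lacrimal gland samples was sequenced as 100 bp pairs, per the labels' protocols. For each gene the authors deposited raw counts. GRCm38 and the tools DESeq2, HTSeq, STAR, FastQC and cutadapt are named without versions, per the submitters' processing notes; which annotation release and strand setting applied is not given there or in any other source used. The deposited log2 values equal log2(count / size factor + 1), with 100% of values within 1e-06, and were used for the rule.

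Gene types and positions came from GENCODE M21 (GRCm38), which held 54165 of the 54232 gene IDs. Tests used the quasi-likelihood method of edgeR 4.0.16 (R 4.3.3) with TMM, filterByExpr at a minimum count of 10, and 9 libraries in 1 model with 6 residual degrees of freedom. Of the genes, 14944 were tested, and p-values were adjusted by Benjamini-Hochberg and called under 0.05. The SE of a log2 change is its size divided by the root of its F statistic. The common coefficient of variation was 21.2%, and genes of few counts are known only within wide counting intervals. Counting error is all that the intervals and floors include. The alternatives used DESeq2 1.42.0 and limma 3.58.1. The fit was tested on simulated data.

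The members and gene lists were chosen with earlier results of these data known, and 10 lists were added after the values were seen, among them those of JAK-STAT genes, STAT5 targets, glycerolipid synthesis, purine ectoenzymes, resident macrophages and oligoadenylate synthetases. Named members were the 12 with the widest gap, those called in 12 against 2 months, those with a mean of at least 9 at 24 months and those on a list, all with the value of each library; the others are given by means. Genes outside the set are list genes, up to 4 with the smallest p, family genes and neighbours within 100 kb.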

Additional observations from a re-analysis of the deposited data

How the results depend on the processing

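With other settings the rule gave between 13 and 116 genes. A gap of 0.5 gave 97 genes and a gap of 1.2 gave 13. A minimum mean of 4 gave 35 and of 6 gave 32. TMM scaling gave 31, without B4galnt2 and Cpne2, and library totals alone 30, of which 25 were among the 33. Each library left out in turn gave 34 to 95 genes, the most without 24-month replicate 1, and all 33 were among them each time; fewer libraries make the rule easier to meet. Without the 3 libraries with salivary transcripts it gave 116, and without the 2 with muscle transcripts 60.

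Of the members, 4 were called in 12 against 2 months. This count was 7 with no filter beyond 1 count, 1 without the 3 libraries with salivary transcripts and 2 with only the 6 libraries compared, and 2 to 4 with a library left out. Of 621 recomputed differences of members, 535 kept their direction and side of the threshold, 18 lost a call, 11 gained one and 57 changed sign without being called; none that was called changed sign. Mcpt4 and Ccl6 gained calls with library totals, no filter and DESeq2.

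Over all genes, 1185 were called in 12 against 2 months. The count was 2026 with no filter, 1821 with DESeq2, 127 without the libraries with salivary transcripts, 746 without those with muscle transcripts, and 435 to 1285 with a library left out, the fewest without 2-month replicate 2. In 24 against 2 months 2597 were called, 626 without the libraries with salivary transcripts and 1160 to 2623 with a library left out. In 24 against 12 months 656 were called, 340 with library totals alone, 1486 with no filter, 1235 with DESeq2, 170 and 132 without the libraries with salivary or muscle transcripts, and 312 to 700 with a library left out. Leaving out both libraries with muscle transcripts leaves 1 at 12 months, which is assumed to vary like the other ages. The cause was not tested. Library totals alone moved the median change of all genes to 0.31 in both comparisons with 2 months, and the share of calls that were higher from 68.2% to 95.3% at 12 and from 56.5% to 93.2% at 24 months, so directions against 2 months are relative to that shift.

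With the replicate number as a block, 701 genes were called in 12 against 2 and 409 in 24 against 12 months, and 3 members in 12 against 2 months. Samples of the same number correlated at -0.183 to 0.0611 in their deviations from the age means, so the numbers were not taken to pair the samples.

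With 40516863 to 42573877 counts a library, members such as Klb and Cd5l still had 0 to 2 counts in each 2-month library, and their changes before 12 months are bounds or wide intervals.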

Other observations

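Several genes outside the protein coding set met the rest of the rule, and are given as values. Gm28114, an unprocessed pseudogene of the Ly6 cluster 76771 bp from Ly6f (chr15:75349006-75351181, minus strand), stood at 65.7, 49.2 and 187 normalised counts in the youngest libraries, 320.5, 129.7 and 183 in those of 12 months and 15544, 11443 and 8488 in those of 24 months. Its level at 24 months was above that of Ly6f in each library. How the counting divided reads among near-identical Ly6 genes is not given in the sources used, so these values are uncertain.

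E230016K23Rik, a processed transcript that overlaps Ccl6 on the other strand, stood at 51.3, 20.9 and 50.4 in the youngest libraries and 184, 266.5 and 404 in those of 24 months. Its reads and those of Ccl6 cannot be told apart where they overlap unless the counting used strand.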
